A study of Mus musculus with 12 samples.

Results

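Peg3 and Zim1 are neighbouring zinc finger genes of an imprinted domain, and their RNA levels are described here in mouse bone marrow mesenchymal stem cells (BMSCs), the plastic-adherent stromal cells of marrow, cultured toward bone with or without α-asarone. The pair was taken by gene symbol, 2 of the 658 genes of the table, and was chosen by a measured value, the lower level of Peg3 with α-asarone. Its levels in that contrast are therefore a description with no test. The 12 libraries fall into 6 controls and 6 with α-asarone (spelled α-Asaronel in the sample labels), a phenylpropanoid of Acorus oils. All 12 came from cells labelled WT in osteogenic induction medium, which held 100 nM dexamethasone, 10 mM sodium β-glycerophosphate and 50 µM ascorbic acid, so both groups carried the glucocorticoid. The sources used here give neither the strain, age and number of mice nor the dose and duration of α-asarone. The labels name no batch, and do not say whether the libraries of a group came from separate animals or cultures, so the p-values cover only the spread among the sequenced libraries, which may be technical.

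Imprinted genes are transcribed mainly from the chromosome inherited from 1 parent, because the parental copies carry different DNA methylation at a control region. In this domain the control region lies at the start of Peg3. Peg3, also called Pw1, is expressed from the paternal copy. It encodes a large nuclear protein with C2H2 zinc fingers, small folds that hold a zinc ion and bind DNA, and is known as a marker of progenitor cells in several adult tissues. Zim1 is expressed from the maternal copy in several mouse tissues and encodes a smaller protein of the same class. The deposited values add the reads of both parental copies, so they say nothing of which copy was transcribed.

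Both genes lie on chromosome 7 of GRCm38 on the minus strand and are protein-coding. Peg3 (ENSMUSG00000002265) spans 6703892 to 6730431, and Zim1 (ENSMUSG00000002266) spans 6671269 to 6696450, with 7441 bases between them. No other gene of the GENCODE M21 annotation overlaps either one. Usp29, which encodes a deubiquitinase, starts on the other strand 146 bases from the start of Peg3 and is transcribed away from it. Usp29 and the other genes of the domain on the list used here (Zim2, Zim3, Zfp264 and the antisense RNA of Peg3) were not analysed here.

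**Figure D1:**
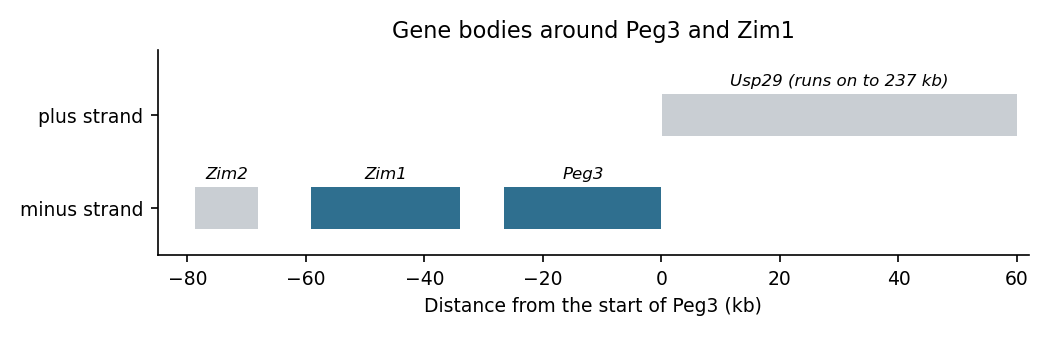
Gene bodies on chromosome 7 as distance in kb from the start of Peg3 (x axis), by strand (y axis), with Peg3 and Zim1 in blue and unanalysed genes in grey. Peg3 and Zim1 lie end to end on the minus strand, and Usp29 starts beside Peg3 on the plus strand.

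The start regions are shown because they are the sequences from which the members' RNAs begin. RefSeq's promoter windows (GRCm38.p6, 250 bases before to 50 after the start site) held both genes. Of each window, the longest stretch outside every annotated gene is printed, 96 bases for Peg3 (chr7:6730463-6730558, minus strand, 44 to 139 bases before the start site) and 142 bases for Zim1 (chr7:6696541-6696682, minus strand, 109 to 250 bases before it). Capitals mark matches to CCAAT on the reverse strand.
Peg3: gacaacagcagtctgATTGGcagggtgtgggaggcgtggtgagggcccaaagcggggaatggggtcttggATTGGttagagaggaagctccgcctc
Zim1: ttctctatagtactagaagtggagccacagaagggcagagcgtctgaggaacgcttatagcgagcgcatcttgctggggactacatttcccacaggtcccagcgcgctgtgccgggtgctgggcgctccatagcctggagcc
The stretch of Peg3 lies between the divergent starts of Peg3 and Usp29 and held CCAAT at 2 places, while the Zim1 stretch held none.

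Over the full windows of 300 bases, both starts were rich in G and C, at 61.3% for Peg3 and 61.7% for Zim1 against a median of 52.7% over 32851 promoters. Peg3 had 13 CpG pairs and Zim1 had 20, against a median of 7. Motifs were searched on both strands. The cAMP response element TGACGTCA occurred in the Peg3 window, 178 bases before the start site, and in 1.79% of all promoters. This match lies outside the printed stretch, within the annotated span of Usp29. CCAAT occurred in 37.4% of all promoters, and the GC box GGGCGG, present in the Zim1 window 65 bases before the start site, in 35.7%. These 3 motifs were added after the sequences were seen. The listed motifs were not found in either window. They were the YY1 motif GCCATNTT (in 6.05% of promoters), the CTCF core, a glucocorticoid response element and a PPAR response element, 2 copies of AGGTCA 1 base apart (in 0.0396% of promoters). A match describes the letters only.

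Peg3 RNA was lower with α-asarone, by 34.0% in the fit of all genes. In controls its level was 23.7, 23.9, 26.4, 26.4, 24.4 and 21.9 TPM (a gene's share of all transcripts, adjusted for transcript length) in replicates 1 to 6. With α-asarone it was 16.7, 15.6, 17.8, 15.6, 15.3 and 15.1 TPM in the same order of numbering. The groups did not overlap, and the highest α-asarone library (replicate 3) lay 4.08 TPM below the lowest control (replicate 6). The means were 24.4 ± 1.74 TPM (SD, n = 6) in controls and 16.02 ± 1.04 TPM (SD, n = 6) with α-asarone. The log2 fold change in counts was −0.60 ± 0.04 (SE), with a 95% confidence interval from −0.69 to −0.51, or 1.51-fold lower. Of the 512 genes tested, 8.4% had values with α-asarone wholly below the controls and 5.86% wholly above. Counting Peg3, 7 genes (1.37%) had a log2 fold change that low, and nothing is read from these shares because Peg3 was chosen by this contrast. In bulk RNA, fewer cells of a type and less RNA per cell cannot be told apart.

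Zim1 RNA was scarce in both groups, and its groups overlapped. In controls it was at 3.40, 2.87, 3.54, 3.96, 2.92 and 2.79 TPM in replicates 1 to 6, and with α-asarone at 3.38, 3.22, 3.06, 2.61, 2.95 and 2.68 TPM. Only 2 α-asarone libraries (replicates 4 and 6) lay below the lowest control. The means were 3.25 ± 0.466 TPM (SD, n = 6) in controls and 2.98 ± 0.302 TPM (SD, n = 6) with α-asarone. The log2 fold change in counts was −0.18 ± 0.09 (SE), with a 95% confidence interval from −0.36 to 0.0042. In percent that interval runs from −21.9% to 0.292%. An absolute change at least as large as that of Zim1 was seen in 22.3% of all genes tested. Single libraries moved the value. Without control replicate 4 the log2 fold change of Zim1 was −0.11, and without α-asarone replicate 3 it was −0.24, with an interval from −0.41 to −0.06. The interval also ended just below 0 without α-asarone replicate 2 or control replicate 2 or 5, and on the scale of log2(TPM + 1) the value was −0.09.

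**Figure D2:**
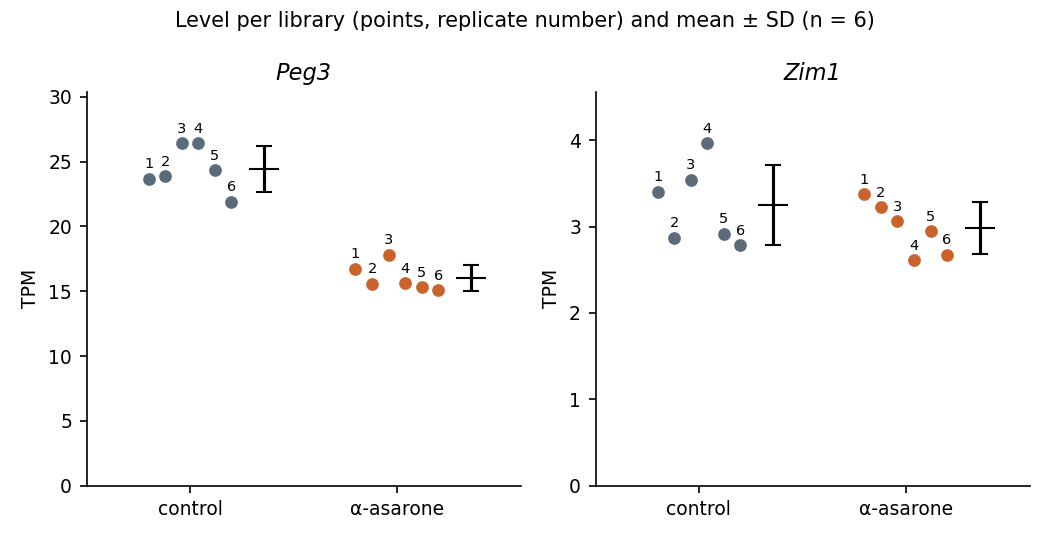
TPM of Peg3 and Zim1 in each library (points, with the replicate number) by group, with the mean ± SD of 6 libraries at the right of each group. All 6 α-asarone libraries lie below all 6 controls for Peg3, while the Zim1 groups overlap.

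The level of Peg3 relative to Zim1 was lower with α-asarone. The ratio of their TPM was 6.66 to 8.34 (median 7.66) in controls and 4.83 to 5.99 (median 5.42) with α-asarone, with no overlap. The ratio of their counts was 8.82 to 10.7 in controls and 6.55 to 7.81 with α-asarone. These ratios hold the contrast by which Peg3 was chosen and were not tested. By rank of TPM among the 658 genes of a library, Peg3 stood at 301 to 323 in controls and at 346 to 370 with α-asarone, so it stood near the middle of the table in controls and lower in every α-asarone library. Zim1 stood at 469 to 482 in controls and at 475 to 483 with α-asarone.

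Depth set different limits for the pair. Peg3 had 1436 to 2165 estimated counts per library in controls and 1039 to 1516 with α-asarone, all whole numbers. Counting alone would give a coefficient of variation near 2.33% in controls and 2.90% with α-asarone, and the observed values were 7.36% and 6.61%. Zim1 had 138 to 243 counts in controls and 134 to 198 with α-asarone, also all whole. Counting alone would give 7.28% and 7.82%, against 10.6% and 12.8% observed. Most of the spread of Peg3 between libraries was thus above counting error, while counting error made up a larger part of the spread of Zim1. Total estimated counts over the table ranged from 843595 to 1224256 per library. The genes of the table held 5.36% to 5.67% of all TPM, so these totals are not library depths.

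The genes beside Peg3 in the order of log2 fold changes are given as a description, since Peg3 was chosen by its place in it. The order holds the 82 genes called lower with a mean of at least 5 TPM in either group, with Peg3 at rank 6. Just before it stood Tcea3, a transcription elongation factor gene, with a log2 fold change of −0.64 ± 0.16 (SE). Just after it stood Col1a1, which encodes the most abundant collagen chain of bone matrix, at −0.50 ± 0.04 (SE). By edgeR's quasi-likelihood test, 155 of 512 genes (30.3%) passed at a Benjamini-Hochberg adjusted p under 0.05, 66 higher (12.9%) and 89 lower (17.4%). Scaled by table totals instead, 127 were higher and 62 lower. The median absolute log2 fold change over all tested genes was 0.08.

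**Figure D3:**
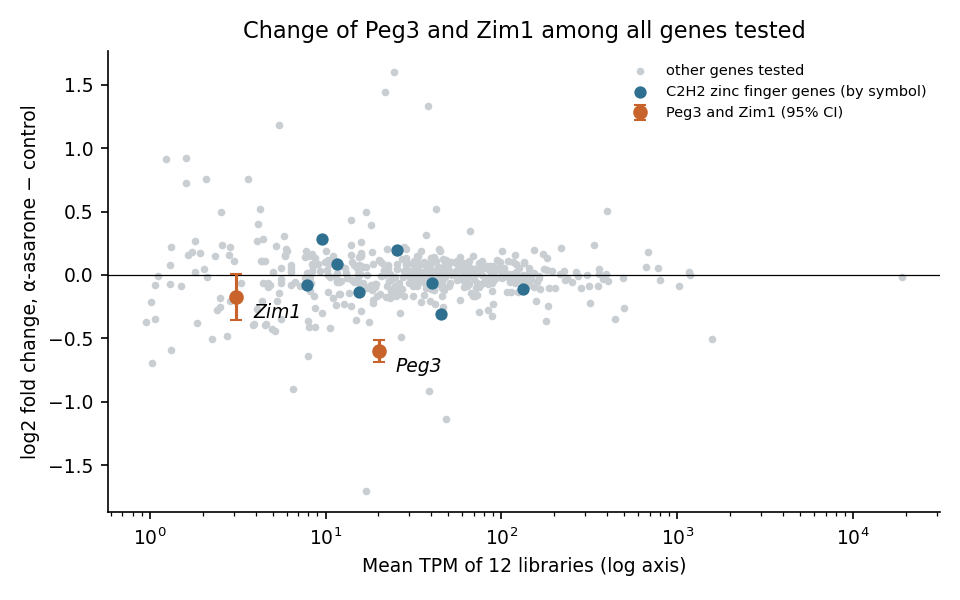
Log2 fold change in counts (y axis, α-asarone minus control) against mean TPM of 12 libraries (x axis, log scale) for 512 genes. Orange points with 95% confidence intervals are Peg3 (−0.60) and Zim1 (−0.18), and blue points are 8 other C2H2 zinc finger genes, between −0.31 and 0.29.

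Other C2H2 zinc finger genes moved in both directions. Of 9 in the table besides the pair, taken by symbol, 8 were tested, 2 rose and 2 fell, or 50% against 30.3% of all genes tested, with a median log2 fold change of −0.07 against 0.00. The reprogramming factor gene Klf4 fell from 50.4 ± 1.97 to 40.8 ± 1.02 TPM (−0.31 ± 0.03 on the log2 scale, edgeR adjusted p = 5.65e-09). Klf6 fell from 138 ± 3.27 to 127 ± 2.20 TPM (−0.11 ± 0.02 on the log2 scale, edgeR adjusted p = 5.78e-04). Zfp512b rose from 23.3 ± 1.03 to 27.4 ± 2.90 TPM (0.19 ± 0.04 on the log2 scale, edgeR adjusted p = 4.48e-04). Zfp959 rose by 0.29 ± 0.10 on the log2 scale (edgeR adjusted p = 0.032), a call lost with limma on log2(TPM + 1) (adjusted p = 0.19), and its estimated counts were not whole in 25.0% of libraries. Zfp385a, Zfp276, Zfp40 and Zfp81 did not pass, with log2 fold changes from −0.13 to 0.09. None of the 8 fell as far as Peg3, and nothing is read from this, because Peg3 was chosen by its fall. Counting Peg3, 7 of the 512 genes tested (1.37%) fell that far. The deposited transcription factor family gave 10 tested genes, 2 higher and 3 lower, Sp1 being the added fall.

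Other imprinted genes in the table were few. Of 76 mouse genes on the list besides the pair, 4 were in the table and 2 passed the filter, both from the imprinted cluster at the far end of chromosome 7. Slc22a18, a transporter gene, had a control mean of 5.63 ± 0.638 TPM and an α-asarone mean of 6.08 ± 1.77 TPM (0.15 ± 0.14 on the log2 scale, edgeR adjusted p = 0.42). Tspan32, a tetraspanin gene, had means of 2.72 ± 0.581 and 2.27 ± 0.689 TPM (−0.25 ± 0.19 on the log2 scale, edgeR adjusted p = 0.32). With edgeR 0 of the 2 passed, against 30.3% of all genes tested, and 2 genes are too few to compare with that share. Of the 2, 0 lay under 0.05 before adjustment, and 0 passed with DESeq2 or limma. Th reached at most 0.15 TPM and Ins2 was listed at 0 in every library. The antisense and control RNAs of imprinted clusters were not analysed here.

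The nearest tested gene on the chromosome was Clcn4, a chloride-proton exchanger gene 0.552 Mb beyond the start of Peg3. Its control mean was 63.8 ± 2.77 TPM and its α-asarone mean 66.5 ± 2.75 TPM (0.06 ± 0.03 on the log2 scale, edgeR adjusted p = 0.12), and it passed when libraries were scaled by table totals alone (adjusted p = 0.012). The next was Bbc3, 9.58 Mb away, at −0.06 ± 0.10 on the log2 scale. No tested gene lay on the other side of the pair. Over chromosome 7, 10 of 58 other tested genes rose and 8 fell (31.0% against 30.3% of all genes tested), with a median log2 fold change of 0.02.

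Genes of pathways in which PEG3 protein is known to act were sparse in the table. PEG3 takes part in p53-dependent cell death, where BAX permeabilizes mitochondria and Bbc3 encodes its activator PUMA. Bax had a control mean of 139 ± 8.01 TPM and an α-asarone mean of 132 ± 10.5 TPM (−0.07 ± 0.04 on the log2 scale), and its estimated counts carried decimals in 33.3% of libraries. Bbc3 had means of 8.49 ± 1.47 and 7.95 ± 0.636 TPM. Of these 2 tested genes 0 passed with edgeR, against 30.3% of all genes tested, nor before adjustment, nor with DESeq2 or limma. PEG3 also promotes loss of β-catenin, the effector of Wnt signalling. Of 3 tested genes on that list 1 passed, or 33.3% against 30.3% of all genes tested, and 3 genes are too few to compare with that share. The gene that passed was Wnt9a, a Wnt ligand gene. It rose from 3.50 ± 0.643 to 4.97 ± 0.561 TPM (0.52 ± 0.11 on the log2 scale, edgeR adjusted p = 4.51e-04), above every control in 5 of 6 libraries. Axin2, a target and inhibitor of the pathway, was at 0.04 ± 0.09, and the transcription factor gene Tcf7 at −0.14 ± 0.12, both as log2 fold changes that did not pass. Tfe3, a lysosome and autophagy regulator gene, was the 1 tested gene of the autophagy list (0.05 ± 0.03, edgeR adjusted p = 0.16), and passed with table totals (adjusted p = 0.016). Uhrf1, which maintains DNA methylation after replication, was the 1 tested gene of the imprint maintenance list (0.03 ± 0.08, edgeR adjusted p = 0.77).

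The deposited annotation assigns Peg3 to the apoptotic process. Of 38 other tested genes with that term, a list chosen after the data were seen, 7 rose and 3 fell (26.3% against 30.3% of all genes), with a median log2 fold change of 0.03. The 3 falls were of Prkd1 (−0.40), a protein kinase D gene, the chondrocyte factor gene Sox9 (−0.26) and the retinoic acid receptor gene Rarg (−0.25). The 7 rises were of Tbx2 (0.27), Mef2d (0.15), Tcirg1 (0.13), Smo (0.13), Map2k7 (0.11), Dnase2a (0.11) and Axl (0.09). Of 14 other tested genes with a deposited repressor activity term, chosen likewise, 3 rose (Tbx2, Zfp512b and Spi1) and 0 fell (21.4% against 30.3%). Of 34 with a term for negative regulation of RNA polymerase II transcription, 8 rose and 4 fell (35.3%).

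Markers of the cells in the culture moved in both directions. Of the stromal and leukocyte markers tested, 5 genes each, 60% and 80% passed, against 30.3% of all genes tested. Of 24 stromal markers listed, 5 were in the table, all detected in every library. Their summed level was 3654 to 4177 TPM in controls and 3230 to 3632 TPM with α-asarone, without overlap. Col1a1 fell, while Col6a1 and Loxl3 rose, the counts of Loxl3 not being whole in any library. Mmp14 (0.01 ± 0.02 on the log2 scale) and Timp1 (−0.04 ± 0.04) did not pass. Without Col1a1 the sum was 1933 to 2074 TPM in controls and 1992 to 2204 TPM with α-asarone. Of 16 leukocyte markers, 5 were in the table. Their sum was 926 to 1042 TPM in controls and 1047 to 1198 TPM with α-asarone, also without overlap. Of single genes tested, 8.4% lay wholly below the controls and 5.86% wholly above. Cfp and Spi1 rose, and Cd52 and Itgb2 fell, the last a call lost with table totals (edgeR adjusted p = 0.051). Cfp moved most in TPM, from 332 ± 23.1 to 469 ± 45.6, and the leukocyte sum without it was not computed. Spi1 went from 143 to 163 TPM and Clec10a, which did not pass, from 103 to 114 TPM. Itgb2 went from 293 to 273 TPM and Cd52 from 97.9 to 78.0 TPM. Of 8 osteoclast markers and 5 contractile markers, 1 each was in the table, so they describe single genes. The osteoclast gene Acp5 fell from 66.6 ± 7.57 to 29.8 ± 5.07 TPM (edgeR adjusted p = 5.21e-13). The contractile gene Cnn1 fell from 26.1 ± 3.50 to 8.14 ± 1.13 TPM (edgeR adjusted p = 1.91e-14). The endothelial markers Vwf and Esam summed to at most 2.11 TPM and the B and T cell markers to at most 0.099 TPM, with Cd3g and Vpreb3 at 0 in every library. Of 5 neural markers 1 was in the table, the neurotrophin receptor gene Ngfr, which did not pass the filter and was not tested. Its scarce RNA was at 0.343 to 0.832 TPM in controls and 0.774 to 1.51 TPM with α-asarone, and describes a single gene. The part of these markers in the level of Peg3 was not tested.

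The ratio of a gene's estimated count to its TPM gives, up to a factor per library, the transcript length behind the deposited TPM, a measure other than the one by which Peg3 was chosen. Peg3 has 4 annotated transcripts, the longest coding 1 of 8694 bases in 9 exons, and Zim1 has 4, among them coding transcripts of 7693 and 3060 bases that both have 8 exons. Scaled on 15 genes with a single annotated transcript, the effective length of Peg3 was 7570 to 7754 bases in controls and 7743 to 7765 with α-asarone. That of Zim1 was 5294 to 6832 bases in controls and 4907 to 6843 with α-asarone. Such lengths are approximate, since the same scaling gave the 15 genes 0.956 to 1.19 times their expected length (10th to 90th percentile).

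The length used for Peg3 was thus nearly constant, and that for Zim1 lay between those of its coding transcripts and varied from library to library. Relative to its mean over libraries, the length of Zim1 had a coefficient of variation of 9.95% and that of Peg3 0.733%, against a median of 1.02% over 430 genes. Between the groups the length differed by 0.58% for Peg3 (exact 2-sided permutation p = 0.279, n = 6 and 6) and by −3.93% for Zim1 (exact 2-sided permutation p = 0.506), and both had an adjusted p of 0.506 over these 2 comparisons. Neither difference exceeded the spread between libraries. With single libraries left out, the relative difference ranged from 0.0023 (without control replicate 3) to 0.0071 for Peg3, against 0.0058 with all. For Zim1 it ranged from −0.077 (without α-asarone replicate 3) to −0.011 (without α-asarone replicate 1), against −0.040 with all. It also moved by over 1.5 times without control replicate 3 (−0.064) or 6 (−0.012). The TPM of Zim1 thus depends on these lengths as well as on its counts. In controls its coefficient of variation was 14.3% in TPM and 10.6% in scaled counts. With α-asarone it was 10.1% in TPM and 12.8% in scaled counts, so the spreads did not simply add.

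**Figure D4:**
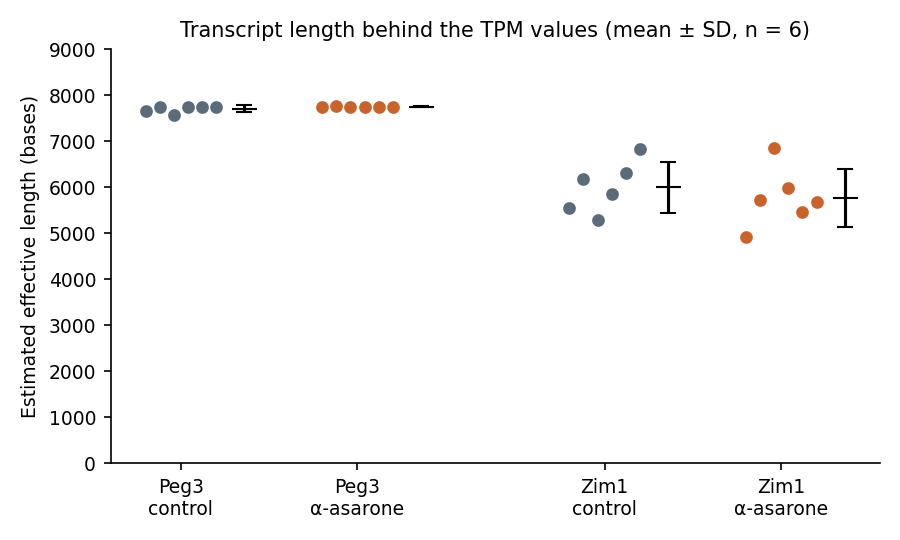
Estimated effective length in bases (y axis) behind the TPM of Peg3 and Zim1 in each library (points), with the mean ± SD of 6 libraries at the right of each group. Peg3 stays between 7570 and 7765 bases in all 12 libraries, while Zim1 ranges from 4907 to 6843.

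Within each group, libraries with more Peg3 tended to hold more Zim1, but no relation passed a test. In TPM, control replicates 3 and 4 were highest for both genes and control replicate 6 was lowest for both. In CPM, control replicate 2 was lowest for Zim1. On log2(TPM + 1), r was 0.808 in controls (exact permutation p = 0.0639, n = 6) and rho was 0.771 (exact permutation p = 0.103). With α-asarone, r was 0.499 (exact permutation p = 0.290, n = 6) and rho was 0.429 (exact permutation p = 0.419). Over these 4 relations the adjusted p values were 0.206, 0.206, 0.387 and 0.419 in that order. Without the 2 libraries farthest from the median of Peg3, r was 0.766 in controls and 0.260 with α-asarone. On the scale of CPM (counts scaled to a common table total), r was 0.593 in controls (exact permutation p = 0.240, n = 6) and 0.780 with α-asarone (exact permutation p = 0.0667, n = 6), and without the 2 farthest libraries −0.549 and 0.0826. The relation by counts thus rested on the libraries at the ends, control replicates 3 and 4 and α-asarone replicates 1 and 3. No r over all 12 libraries is given with the group means left in, because Peg3 separates the groups.

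**Figure D5:**
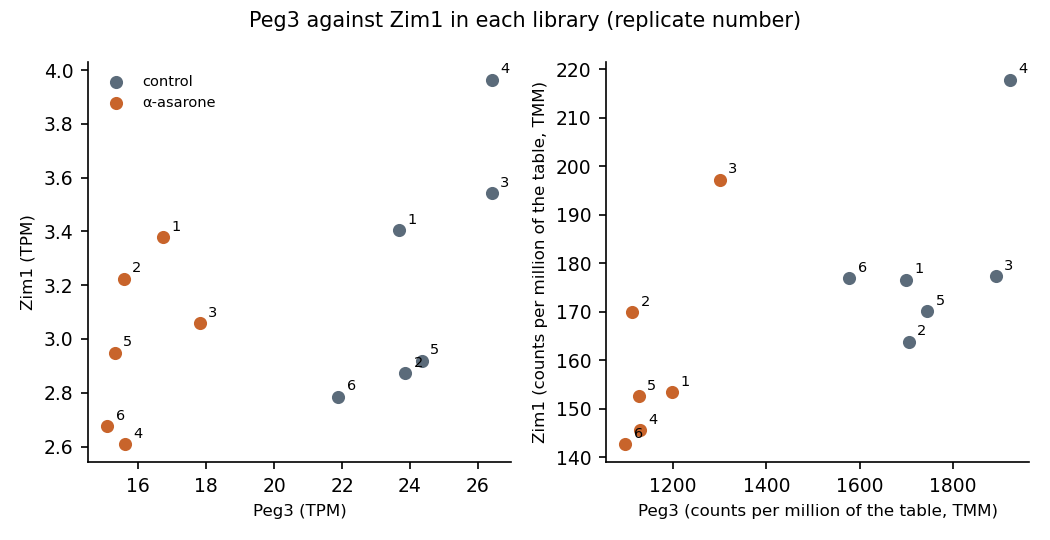
Zim1 (y axis) against Peg3 (x axis) in each library, in TPM at the left and in CPM of the table with TMM factors at the right, numbered by replicate and coloured by group. The groups separate along Peg3 and overlap along Zim1 on both scales.

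The genes most like the pair were ranked by r of log2(TPM + 1) over 12 libraries after the group means were removed, among 454 other tested genes with a mean of at least 5 TPM for Peg3 and 455 for Zim1. For Peg3 the highest were C1d, an exosome cofactor gene (0.692), the kinase gene Cdk12 (0.644) and the replication helicase gene Mcm2 (0.632). The lowest were Atp5d, an ATP synthase subunit gene (−0.793), and Dpp9 (−0.726). By group, r with Mcm2 was 0.945 in controls but 0.022 with α-asarone. It was 0.673 and 0.821 with C1d, and 0.519 and 0.788 with Cdk12, in the same order. Zim1 itself, below the TPM minimum of that ranking, had r = 0.687 with Peg3, which 1 of the 454 genes exceeded. On the scale of counts it had r = 0.680, again exceeded by 1 gene. Within each group, as given above, the relation of the pair passed no test. By counts it rested on the libraries at the ends.

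For Zim1 the highest were Abcf3 (0.903), Ssbp2 (0.778) and Lmf1 (0.770), and the lowest Map2k7 (−0.807) and Loxl3 (−0.795). By group, r with Lmf1 was 0.963 in controls but 0.261 with α-asarone. It was 0.936 and 0.833 with Abcf3, and 0.884 and 0.717 with Ssbp2, in the same order. On the scale of counts r with Abcf3 was −0.0890, with Ssbp2 0.543 and with Lmf1 0.388. The estimated counts of Map2k7 and Loxl3 were not whole in any library, so their values are uncertain. The likeness of Zim1 to Abcf3 was therefore seen in TPM and not in counts. From the side of Zim1, r with Peg3 was exceeded by 5 of the 455 genes in TPM and by 7 in counts. All these values are descriptions over libraries that share scaling and depth.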

How the data were processed

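Poly(A) RNA of BMSC cultures was sequenced in 12 libraries. Per the file headers, the authors deposited TPM and an estimated count for every gene in each library. The deposited counts carry decimals. The submitters' processing notes name GRCm38 and mm10, and name no aligner or quantifier in the text used here. The table held 658 genes, all matched to GENCODE M21.

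Estimated counts were rounded and fitted with edgeR 4.0.16 (glmQLFit, glmQLFTest, TMM factors 0.976 to 1.03, no covariate) in R 4.3.3. Genes with at least 1 TPM in at least 6 libraries (512) were tested, with Benjamini-Hochberg adjustment over all of them. Positive log2 fold changes are higher with α-asarone. The code of the fit was run on simulated counts with a preset spread between libraries. That spread was not matched to Peg3 or Zim1, so nothing about the pair is read from the run. Correlations and lengths used exact permutation tests over 720 pairings and 924 arrangements. Replicate pairs differed beyond sampling noise (chi-square per degree of freedom 2.27 to 11.9).

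The members and lists were chosen with earlier results of these data known. Named genes are the pair, up to 4 called members of each list (by size of change) or, with none called, up to 2 with the highest TPM, the largest changes among zinc finger genes, the nearest tested neighbours, the genes beside Peg3 in rank and those most like the pair. Th, Ins2, Sp1, Axin2, Tcf7, Zfp385a, Zfp276, Zfp40, Zfp81, Vwf, Esam, Cd3g, Vpreb3, Prkd1, Sox9, Rarg, Mmp14, Timp1 and Tbx2 fall outside this rule and were named after their values were seen. The same holds for Mef2d, Tcirg1, Smo, Dnase2a, Axl and Clec10a. No protein table was used, so zinc finger genes were taken by symbol. Alternatives were median-ratio scaling, table totals, no filter, DESeq2 1.42.0, limma 3.58.1 on log2(TPM + 1) and log2(TPM + 0.1), a replicate block, and leaving out each library in turn.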

Additional observations from a re-analysis of the deposited data

Results flagged for a closer look

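The extreme values of a gene were measured against the rest of their group in 76 groups of 6 libraries. A value stood apart in 3 of them, where chance gives about 3.8. No value of Peg3 or Zim1 was among them. Tspan32 reached 3.86 TPM in control replicate 6, with the next control at 2.708 TPM. Klf6 was at 123.4 TPM in α-asarone replicate 6, with the next at 127.3 TPM. Tcea3 was at 9.54 TPM in α-asarone replicate 6, with the next at 6.204 TPM, and without that library its log2 fold change was −0.79.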

How the results depend on the processing

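The log2 fold change of Peg3 lay between −0.63 and −0.56 over 21 alternatives, and between −0.63 and −0.57 with each library left out. That of Zim1 lay between −0.24 (without α-asarone replicate 3) and −0.09 (limma on log2(TPM + 1)), below 0 in each. Genes called numbered 116 to 189 against 155, zinc finger genes called 3 to 5 against 4, and imprinted genes 0 in each. With table totals 127 genes were higher and 62 lower, against 66 and 89, with a median log2 fold change of all genes of 0.04. The correlation of same-numbered libraries lay between −0.003 and 0.128, and 2 of 6 were most alike to their own number, so the numbers were not taken to pair the libraries. With the replicate block 168 genes were called, with Peg3 at −0.60 and Zim1 at −0.17. Within groups, r of Peg3 and Zim1 ran from 0.715 to 0.878 in controls and from 0.355 to 0.698 with α-asarone with each library left out. Relative length differences kept their sign but ranged from 0.0023 to 0.0071 for Peg3 and from −0.077 to −0.011 for Zim1 with each library left out. Scaling by the count to TPM ratio, leaving out Apoe and the deposited zinc finger family were added after seeing the data. Over 31 named genes, 637 of 651 alternative values kept their call and 0 reversed. Zfp959 lost its call in both limma fits and without α-asarone replicate 3 (adjusted p = 0.12) or 4 (0.051) or control replicate 2 (0.061), 5 (0.087) or 6 (0.056). Itgb2 lost it with table totals (adjusted p = 0.051) and Map2k7 with limma (0.15). The cause of these changes was not tested.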

Other observations

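Abcf3, the gene most like Zim1 in TPM, gave different answers in the deposited units. Its control mean was 51.9 ± 4.35 TPM and its α-asarone mean 44.4 ± 2.39 TPM, with 5 of 6 α-asarone libraries below every control, and limma on log2(TPM + 1) gave a log2 fold change of −0.22 (adjusted p = 0.0057). On estimated counts edgeR gave 0.02 ± 0.03 (SE) on the log2 scale, with an adjusted p = 0.65. The cause was not tested.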
